A study of Homo sapiens with 8 samples.

Results

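Of the 5585 regions bound by dnTCF1EWT after 2 h of doxycycline, 294 held 1 or more Helper sites (5′-RCCGCC-3′, where R is A or G) and no Wnt response element (WRE, 5′-CTTTGWWS-3′, where W is A or T and S is C or G). They were chosen by the numbers of motif matches that the authors counted in each peak with HOMER, within peaks that had been called for dnTCF1EWT at 2 h with a score of 50 or more. Binding of dnTCF1EWT at 2 h thus selected all peaks of the list, and a longer peak has more room for a match. The other peaks of the list held a WRE and no Helper site (801 peaks), both motifs (110 peaks) or neither motif (4380 peaks). The 294 regions held 559 Helper sites in all. A single site was present in 208 regions, 2 sites in 39, 3 or 4 sites in 19, and 5 or more sites, up to 12, in 28. HOMER gave 280 different nearest genes for them.

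TCF1 is a transcription factor of the Wnt pathway that binds DNA through an HMG box, which recognizes the WRE. The E isoforms carry a second DNA-binding domain, the C-clamp, which recognizes GC-rich Helper sites. Dominant-negative TCF1E (dnTCF1E) lacks the part that binds β-catenin, so it occupies the DNA without bringing in this coactivator.

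Both proteins were made with a FLAG tag from doxycycline-inducible genes in DLD-1, a colon cancer cell line with active Wnt signaling, and the labels call each line clonal. dnTCF1EWT has an intact C-clamp, and dnTCF1Emut carries substitutions that abolish DNA binding by the C-clamp. ChIP-seq with anti-FLAG beads was performed without doxycycline (0 h) and after 2 and 9 h at 1 ug/mL, in cells that had all been kept in blasticidin and zeocin. The duplicates of each condition were pooled before peaks were called, which gave 6 lists of 354 to 12996 peaks on the hg19 build.

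The peak score is the MACS score, which increases as the P-value of a peak falls and is not scaled for sequencing depth. How deeply each library was sequenced cannot be read from the lists. Each condition is 1 pooled list, so no spread between replicates can be given. Tests over peaks therefore compare sets of peaks and not conditions, and the 95% intervals (Wilson for percentages) cover counting error only. Each protein has its own cell line and libraries, and differences between proteins, lines and library batches cannot be told apart.

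To show what a region with Helper sites and no WRE looks like at base level, promoter windows of 5 genes are given here. The windows are from RefSeq (GRCh38.p14) and reach from 250 bases before to 50 bases after the TSS on the gene's strand. They are not the peak sequences, which need an hg19 genome that was not used here, and positions were not converted between builds. Of the 294 regions, 14 had their center in this window of the nearest TSS, and 13 of them matched a RefSeq gene. MIR17HG, HNRNPA0 and ING4 have a single window and several Helper sites in the peak, and HIST1H4K and HIST1H4J are near-identical copies. These genes were chosen after their values were seen. Capitals mark every match to ACCGCC or GCCGCC, or to GGCGGT or GGCGGC on the opposite strand, and overlapping matches were counted. Sequences like the WRE are not marked. No WRE means no match to CTTTGWWS, and each of the 5 windows holds the shorter CTTTGW on either strand, a form that the paper also searched.
MIR17HG promoter, chr13:91347437-91347736, plus strand, 11 matches: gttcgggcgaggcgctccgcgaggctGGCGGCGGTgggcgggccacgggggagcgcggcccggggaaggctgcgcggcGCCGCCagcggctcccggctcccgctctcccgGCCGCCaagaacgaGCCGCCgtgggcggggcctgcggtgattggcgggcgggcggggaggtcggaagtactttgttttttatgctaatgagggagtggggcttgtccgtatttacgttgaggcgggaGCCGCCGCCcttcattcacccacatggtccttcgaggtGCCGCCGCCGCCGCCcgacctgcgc
HNRNPA0 promoter, chr5:137754314-137754613, minus strand, 5 matches: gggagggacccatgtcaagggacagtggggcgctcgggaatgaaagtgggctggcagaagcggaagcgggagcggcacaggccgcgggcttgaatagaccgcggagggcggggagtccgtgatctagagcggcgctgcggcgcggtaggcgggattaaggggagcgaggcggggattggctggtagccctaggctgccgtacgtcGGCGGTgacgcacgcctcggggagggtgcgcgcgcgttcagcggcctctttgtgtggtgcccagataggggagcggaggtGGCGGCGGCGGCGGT
ING4 promoter, chr12:6663070-6663369, minus strand, 3 matches: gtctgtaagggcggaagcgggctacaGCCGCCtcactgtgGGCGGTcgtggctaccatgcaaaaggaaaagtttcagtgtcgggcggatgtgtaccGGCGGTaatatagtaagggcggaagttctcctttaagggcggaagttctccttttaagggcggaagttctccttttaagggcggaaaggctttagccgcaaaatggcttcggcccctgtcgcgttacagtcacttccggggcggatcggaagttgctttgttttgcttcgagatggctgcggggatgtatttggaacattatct
HIST1H4K (H4C12) promoter, chr6:27831511-27831810, minus strand, 0 matches: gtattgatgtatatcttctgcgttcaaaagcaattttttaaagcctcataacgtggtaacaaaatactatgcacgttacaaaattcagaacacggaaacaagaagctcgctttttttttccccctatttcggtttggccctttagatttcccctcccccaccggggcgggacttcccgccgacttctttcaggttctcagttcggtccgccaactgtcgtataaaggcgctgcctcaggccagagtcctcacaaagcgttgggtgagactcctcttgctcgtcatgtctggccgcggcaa
HIST1H4J (H4C11) promoter, chr6:27823842-27824141, plus strand, 0 matches: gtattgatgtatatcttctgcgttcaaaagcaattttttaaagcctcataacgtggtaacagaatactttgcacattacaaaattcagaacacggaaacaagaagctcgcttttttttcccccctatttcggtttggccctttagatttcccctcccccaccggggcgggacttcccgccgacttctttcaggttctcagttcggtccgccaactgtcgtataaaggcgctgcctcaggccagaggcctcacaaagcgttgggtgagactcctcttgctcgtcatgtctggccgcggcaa

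The matches in MIR17HG and HNRNPA0 include runs in which consecutive sites overlap. In ING4 they lie apart from each other. The windows of the 2 histone genes differ by 5 base edits over 300 bases and hold no match, although each peak was listed with 1 Helper site. Of the 13 matched windows, 11 held a Helper site (84.6%), against 14615 of all 35116 RefSeq windows (41.6%). A Helper site and no WRE was found in 9 of the 13 and in 14078 of all windows (40.1%). The Helper site is thus common in promoter windows at large. The 13 belong to regions chosen for a Helper site and no WRE and centered in the window, which largely fixes their higher shares. They were not compared by a test.

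The regions with a Helper site and no WRE scored 73.6 at the median (lower and upper quartile 56.4 and 149), and their scores reached from 50.03 to 1781. The lowest belonged to regions near PTPRJ (50.03) and CLIC5 (50.16), next to the lower limit of the list. A score of 100 or more was reached by 107 of 294 regions (36.4%, 95% interval 31.1 to 42.0%), against 16.6% of all 5585 peaks. This was lower than the 405 of 801 peaks with a WRE and no Helper site (50.6%, odds ratio 0.559, 95% interval 0.420 to 0.743, two-sided Fisher's exact test, adjusted p = 5.05e-05). It was higher than the 339 of 4380 peaks with neither motif (7.74%, odds ratio 6.82, 5.19 to 8.92, Fisher's exact test, adjusted p = 2.50e-38). Adjusted p-values of Fisher's test are Benjamini-Hochberg values over 10 tests. Those of stratified comparisons were adjusted within each kind of strata, over 10 tests for GC content, 6 for score and 4 for score and GC content together. Of the 110 peaks with both motifs, 75 (68.2%) reached this score, which was not tested against the regions. Median lengths were 253.5 bp for these regions, 365 bp for peaks with a WRE alone and 174 bp for peaks with neither. Within quartiles of length, the odds ratio against peaks with a WRE alone was 1.08 (0.728 to 1.61, Mantel-Haenszel), so the lower share of high scores was not seen among peaks of similar length. Against peaks with neither motif it was 2.62 (1.79 to 3.85, Mantel-Haenszel), so that excess was smaller among peaks of similar length.

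The 15 regions with the highest scores included 8 with a single Helper site. The highest lay at AMZ1, a metallopeptidase gene, on chromosome 7 from 2754825 to 2755413, across its transcription termination site. It scored 1781 at 2 h (rank 6 of 5585) and 476 at 9 h, and no dnTCF1Emut peak overlapped it. A region in intron 2 of IGF1R (NM_000875), on chromosome 15 from 99319751 to 99320349, for which MIR4714 is listed as the nearest gene, scored 1239 at 2 h and 403 at 9 h. The region nearest to GADD45B, a stress and growth arrest gene, lay 42187 bp from its TSS, in an intron of NM_052847. It reached on chromosome 19 from 2517986 to 2518635 and scored 1177 at 2 h and 208 at 9 h. Neither the IGF1R region nor the GADD45B region was listed for dnTCF1Emut. The paper describes the intronic GADD45B region that it cloned as holding a WRE, whereas HOMER counted none in this peak. Whether they are the same region was not checked. FUNDC2P2 scored 1046 for dnTCF1EWT at 2 h, 124 at 9 h and 518 for dnTCF1Emut at 2 h. NAA20, the catalytic subunit of an N-terminal acetyltransferase, scored 1027, 176 and 76.3 in the same lists. UGT2B15, an enzyme of steroid glucuronidation, scored 867, 270.4 and 159. The distance to the TSS was -36140 bp for the NAA20 region, in an intron of NM_018993, and -62201 bp for the intergenic UGT2B15 region. All 15 regions were listed again at 9 h, 3 of them with a higher score, and those 3 were INTS4L1 and INTS4L2, which are near-identical copies. Of the 15, 5 were also listed for dnTCF1Emut at 2 h, and 2 lay within 2 kb of a TSS. High-scoring peaks of the other classes were often listed again too. At scores of 200 or more, 69.7% of the peaks with a WRE alone and 59.8% with neither motif were listed at 9 h. For dnTCF1Emut at 2 h it was 62.9 and 48.0%.

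Regions with a Helper site and no WRE were close to a TSS more often than peaks with a WRE alone or with neither motif. The center of 69 of 294 regions (23.5%, 95% interval 18.99 to 28.6%) was within 2 kb of a TSS, against 5.96% of all peaks. For peaks with a WRE alone it was 36 of 801 (4.49%, odds ratio 6.52, 4.16 to 10.3, Fisher's exact test, adjusted p = 2.69e-18). For peaks with neither motif it was 201 of 4380 (4.59%, odds ratio 6.38, 4.62 to 8.71, adjusted p = 1.17e-25, Fisher's exact test). Of the 110 peaks with both motifs, 27 (24.5%) were as close to a TSS, so the trait was not particular to regions without a WRE. The median distance to the TSS was 18802 bp, against 52027 bp for peaks with a WRE alone and 37684 bp for peaks with neither. HOMER annotated 140 of the regions as intergenic, 102 as intronic, 36 as promoter-TSS, 6 as non-coding transcripts, 5 as transcription termination sites, 3 as 5′ UTR and 2 as exonic.

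The Helper site consists of G and C with a single possible A, and GC content therefore differs between the classes by construction. The median GC content was 52.4% for these regions, 42.3% for peaks with a WRE alone and 49.7% for peaks with neither. In strata of 5% GC, the odds ratio for a TSS within 2 kb was 2.28 (1.27 to 4.10, Mantel-Haenszel, adjusted p = 0.00915, n = 294 and 801 peaks) against peaks with a WRE alone and 3.33 (2.28 to 4.85, adjusted p = 3.29e-10, n = 4380) against peaks with neither. The excess was thus smaller among peaks of like GC content but remained past the threshold of 0.05. Each Helper site holds a CpG, and CpG content was not stratified. Its median was 3.50% for these regions, 0.906% for peaks with a WRE alone and 1.55% for peaks with neither. Alu repeats held 59.7% of the peaks with neither motif and 20.7% of these regions. Of the 61 regions in Alu, 0 were within 2 kb of a TSS. The parts of CpG content and of repeats were not tested. Between 45 and 50% GC, 4 of 60 regions were within 2 kb of a TSS, against 7 of 151 peaks with a WRE alone and 35 of 1056 with neither motif. Between 60 and 65% GC it was 15 of 33 regions, against 5 of 38 peaks with neither motif.

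**Figure D1:**
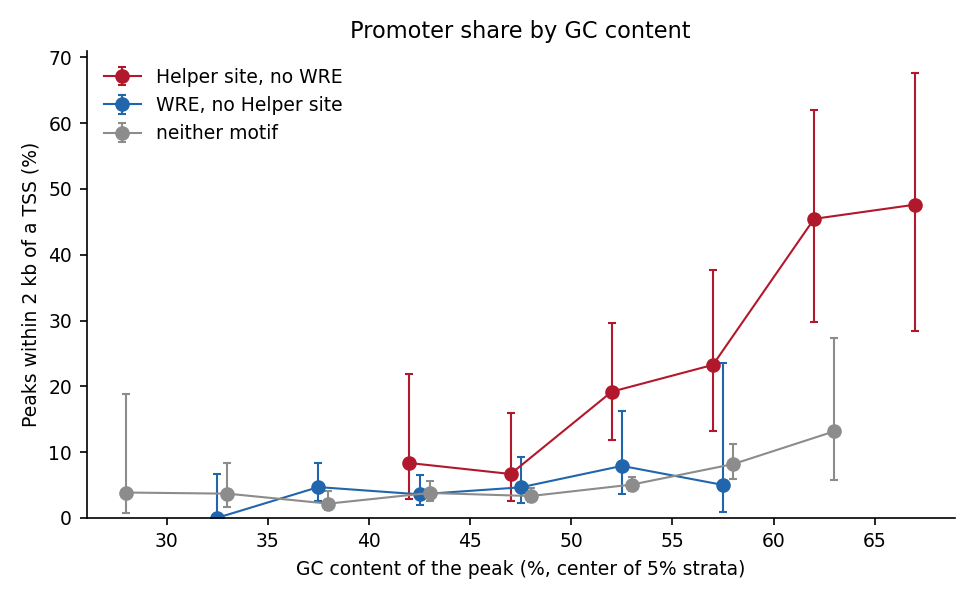
Percentage of dnTCF1EWT 2 h peaks with the center within 2 kb of a TSS (y axis) by GC content in strata of 5% (x axis, points offset slightly sideways), for 3 motif classes, as shares with Wilson 95% intervals in strata of 20 or more peaks. The share for peaks with a Helper site and no WRE rises to 45.5% between 60 and 65% GC, where 13.2% of the peaks with neither motif lie near a TSS.

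The 69 promoter regions belonged to 68 genes, with 32 centers upstream and 37 downstream of the TSS, and 41 of them were within 500 bp of it. A second Helper site was present in 40 of the 69. The strongest outside near-identical copies was at YAP1, a coactivator of the Hippo pathway, with a score of 494 at 2 h, no dnTCF1EWT peak at 9 h and a dnTCF1Emut score of 52.4 at 2 h. ING4, a PHD finger protein of histone acetyltransferase complexes, scored 477 at 2 h and 70.2 at 9 h. CDCA7, a cell division gene, scored 466 at 2 h, 99.0 at 9 h and 138 for dnTCF1Emut at 2 h. YAP1 and CDCA7 were the 2 promoter regions with a dnTCF1Emut peak. RHEB, a GTPase that activates mTORC1, held 12 Helper sites in a peak at its first exon on chromosome 7 from 151216492 to 151216947, 291 bp downstream of the TSS. It scored 405 at 2 h and 328 at 9 h, and no dnTCF1Emut peak overlapped it. Weaker promoter regions, named here after their values were seen, included MDM4 (62.8) and MDM2 (54.1), both regulators of p53, KIT (65.4), a receptor tyrosine kinase, and SUZ12 (50.4), a subunit of PRC2. These 4 were listed at 2 h for dnTCF1EWT and not at 9 h or for dnTCF1Emut.

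Known targets of Wnt signaling were present among the nearest genes. Of 77 peaks nearest to genes listed as Wnt targets and feedback genes, 11 had a Helper site and no WRE (this list was nearest to 3.74% of the 294 regions and to 1.38% of all 5585 peaks). The list was also nearest to 13 of the 801 peaks with a WRE alone and 9 of the 110 with both motifs. Nearness to its genes was thus not particular to regions without a WRE. Of these 11, 4 scored 100 or more, 7 were listed at 9 h and 1 for dnTCF1Emut at 2 h. The 11, which include GADD45B and BAMBI, also held TGIF1, a homeobox repressor that also acts in TGF-β signaling, with a score of 324 at 2 h and 111 at 9 h in its first intron. FZD7, a Wnt receptor gene, scored 418 at 2 h, 58.6 at 9 h and 181 for dnTCF1Emut at 2 h, 34670 bp from its TSS. CDX2, an intestinal homeobox gene, scored 78.6 at 2 h and 51.1 at 9 h in intron 1. MIR17HG, the host gene of the miR-17-92 microRNAs, held 7 Helper sites in a peak of 157 bp and scored 66.97 at 2 h only. ZIC2, a zinc finger transcription factor, scored 102 and DKK4, a secreted Wnt antagonist, 56.5, both at 2 h only. The DKK4 region lay 18745 bp from that TSS, in intron 9 of NM_002690 and in an Alu repeat. The CDX2 region lay within 2 kb of a peak with a WRE, as did 9 of the 294 regions in all (3.06%). The share was 0.842% of all 5585 peaks and 0.874% of the peaks with a WRE alone, which was not tested. Of 22 peaks nearest to the other Wnt ligands, receptors and transducers, 0 belonged to the class, whereas 2 held a WRE alone and 2 both motifs.

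The other lists held few regions, and 5.26% of all 5585 peaks belong to the class. Of 9 peaks nearest to replication-dependent histone genes, which supply histones in S phase, 3 had a Helper site and no WRE, at HIST1H4K (115 at 2 h, 73.9 at 9 h), HIST1H4J (110.2 and 71.3) and HIST2H2AC (63.5 at 2 h only). Both of the HOX regions, HOXA3 (581 and 67.5) and HOXC4 (101.5 and 77.3), were listed at both times, out of 7 peaks nearest to HOX genes. Both ribosomal protein regions, RPL23 (127) and RPS27L (100.5), were listed at 2 h only, out of 18 peaks. There were 3 of 31 peaks for the BMP and TGF-β pathway, 4 of 37 for early response genes, which include GADD45B and SPRED2, an inhibitor of Ras signaling (122 at 2 h and 121 at 9 h), 3 of 89 for ZNF genes and 1 of 7 for splicing factors of the hnRNP and SR families. The ZNF regions included ZNF143, a promoter-binding factor, which scored 75.2 at 2 h and 131 at 9 h, and the splicing factor was HNRNPA0 (66.4 at 2 h only). These counts are small and describe the nearest genes, with no test.

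A dnTCF1EWT peak at 9 h overlapped 101 of the 294 regions (34.4%, 95% interval 29.2 to 40.0%), against 14.9% of all 2 h peaks. For peaks with a WRE alone it was 255 of 801 (31.8%, odds ratio 1.12, 0.834 to 1.5, Fisher's exact test, adjusted p = 0.583), which did not pass the threshold, and the interval allows a difference in either direction. Peaks with neither motif were recovered less often, 421 of 4380 (9.61%, odds ratio 4.92, 3.75 to 6.43, Fisher's exact test, adjusted p = 1.48e-27). These classes differ in repeats, since Alu elements held 59.7% of the peaks with neither motif and 20.7% of the regions. Of the 61 regions in Alu, 5 (8.20%) were recovered, against 77 of the 177 outside repeats (43.5%). The part of repeats in the contrast was not tested. Of the 110 peaks with both motifs, 56 (50.9%) were recovered, which was not tested against the regions. Recovery rose with the score in the 3 other classes. Of the regions with a score below 67, 16 of 127 were listed at 9 h, and of those with a score of 200 or more, 47 of 66. In strata of score, the odds ratio was 1.42 (1.02 to 1.98, Mantel-Haenszel, adjusted p = 0.0505, n = 294 and 801 peaks) against peaks with a WRE alone and 2.15 (1.58 to 2.93, adjusted p = 1.62e-06) against peaks with neither. In strata of score and GC content together, the latter was 1.45 (1.02 to 2.07, adjusted p = 0.0701, n = 294 and 4380 peaks).

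At the 101 regions listed at both times, 83 of the 9 h peaks held a Helper site and 2 held a WRE, which the overlap with regions chosen for these motifs largely fixes. The median score was 146 at 2 h and 95.3 at 9 h, and the median log2 ratio of the 9 h to the 2 h score was -0.62 (quartiles -1.53 and 0.13), with the higher score at 9 h in 31 regions. Peaks with a WRE alone had a median log2 ratio of -0.76 over 255 regions, 52 of them higher at 9 h, and peaks with neither motif -0.09 over 421 regions, 183 of them higher. These ratios are not scaled for depth and were not tested. As rank percentiles within each list, the score was higher at 9 h in 62 of the 101 regions, so the direction depends on the scale. The 9 h list held 521 peaks with a Helper site and no WRE, of which 84 (16.1%) overlapped one of the 294 regions.

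The regions with the highest ratios of 9 h to 2 h score were nearest to LOC100133920 (121 at 2 h and 918 at 9 h), MIR4436A (100.1 and 682), FOXD4L4 (102 and 594, and 93.2 and 454 for a second region) and FCGR2A (82.3 and 416). All of these are nearest to genes or segments with near-identical copies, between which reads cannot be assigned with certainty, and held 8 to 10 Helper sites. The sixth lay upstream of RHOU, at a distance to the TSS of -18099 bp. This gene is induced by Wnt signaling. The region scored 53.8 at 2 h and 221 at 9 h, where the peak was wider (2389 bp against 730 bp) and held 1 WRE. This region was also listed before induction, with a score of 50.3. Of the regions listed at both times, 20 were nearest to genes on a list of near-identical copies, which was made after the values were seen and is not complete, and 11 of these had the higher score at 9 h. Without them, 20 of 81 did, and the median log2 ratio was -0.73.

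**Figure D2:**
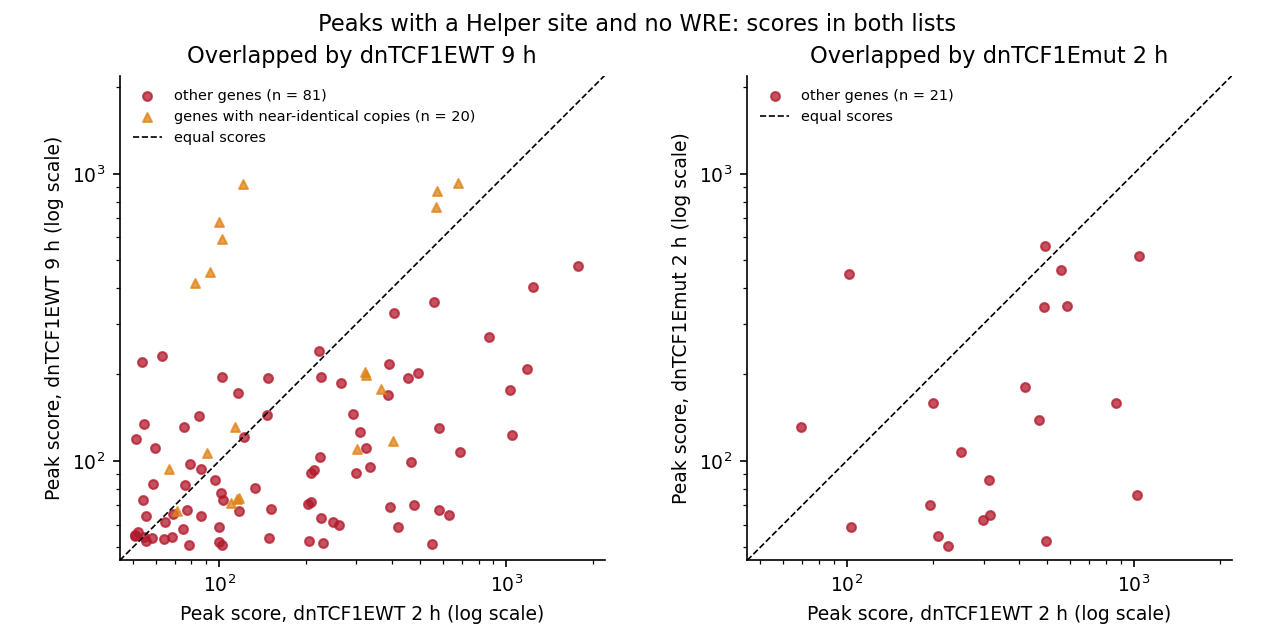
Peak scores of the regions with a Helper site and no WRE, for dnTCF1EWT at 2 h (x axis) and in the other list (y axis), both on log scales, with 101 regions listed for dnTCF1EWT at 9 h on the left, 21 listed for dnTCF1Emut at 2 h on the right, triangles for genes with near-identical copies and a dashed line at equal scores. Most points are below the line, and 5 triangles stand apart near a 2 h score of 100 with 9 h scores from 416 to 918.

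A dnTCF1Emut peak at 2 h overlapped 21 of the 294 regions (7.14%, 95% interval 4.72 to 10.7%), against 9.44% of all dnTCF1EWT peaks. For peaks with a WRE alone it was 275 of 801 (34.3%), an odds ratio of 0.147 (0.0876 to 0.236, Fisher's exact test, adjusted p = 4.61e-22). The regions with a Helper site and no WRE were thus shared with the C-clamp mutant less often than peaks with a WRE alone. Within strata of GC content, the odds ratio was 0.384 (0.232 to 0.636, Mantel-Haenszel, adjusted p = 0.000231, n = 294 and 801 peaks), within strata of score 0.123 (0.0726 to 0.209) and within both 0.319 (0.181 to 0.564, adjusted p = 0.000188). The difference was therefore smaller among peaks of like GC content. The dnTCF1Emut lists were poorer in GC at each time, also before induction. Their median GC content was 6.32% at 0 h, 37.1% at 2 h and 35.6% at 9 h. For the dnTCF1EWT lists it was 49.7, 48.9 and 51.3%. The part of this in the recovery was not tested. Of the 110 peaks with both motifs, 25 (22.7%) were overlapped.

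Against peaks with neither motif, 206 of 4380 (4.70%), the odds ratio was 1.56 (0.929 to 2.50, Fisher's exact test, adjusted p = 0.0964). The direction depended on the peaks compared. In strata of GC content the odds ratio was 2.79 (1.67 to 4.66, Mantel-Haenszel), and in strata of score it was 0.305 (0.177 to 0.527). In strata of both it was 0.631 (0.348 to 1.14).

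**Figure D3:**
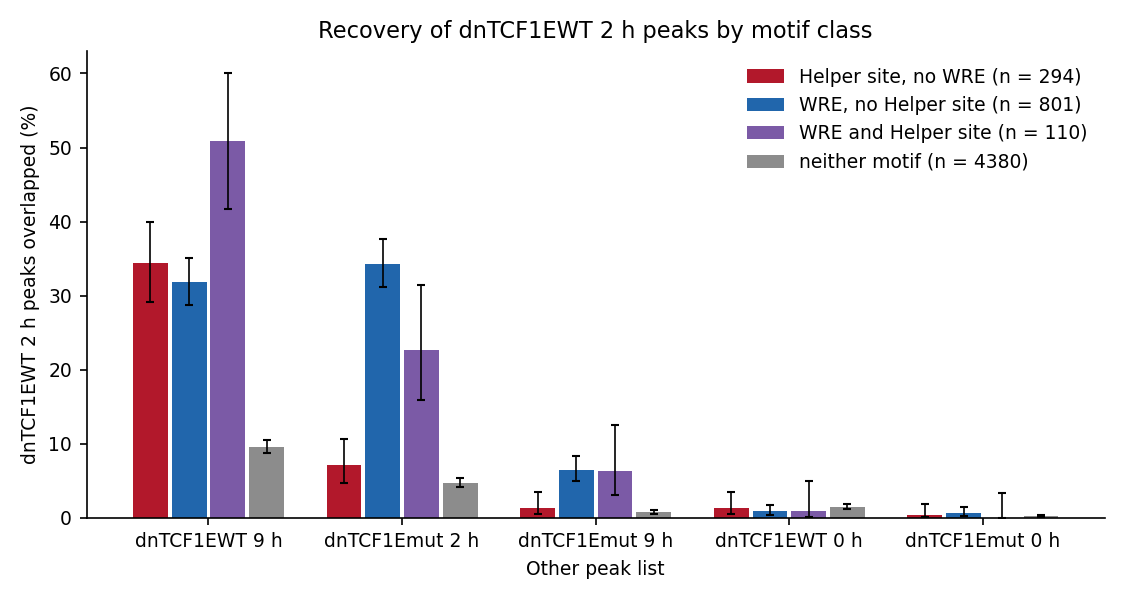
Percentage of dnTCF1EWT 2 h peaks overlapped by any base in each of the other 5 lists (x axis), by motif class, as bars with Wilson 95% intervals and n the number of peaks in the class. Regions with a Helper site and no WRE reach 34.4% in the dnTCF1EWT 9 h list and 7.14% in the dnTCF1Emut 2 h list, whereas peaks with a WRE alone reach 31.8 and 34.3%.

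**Figure D4:**
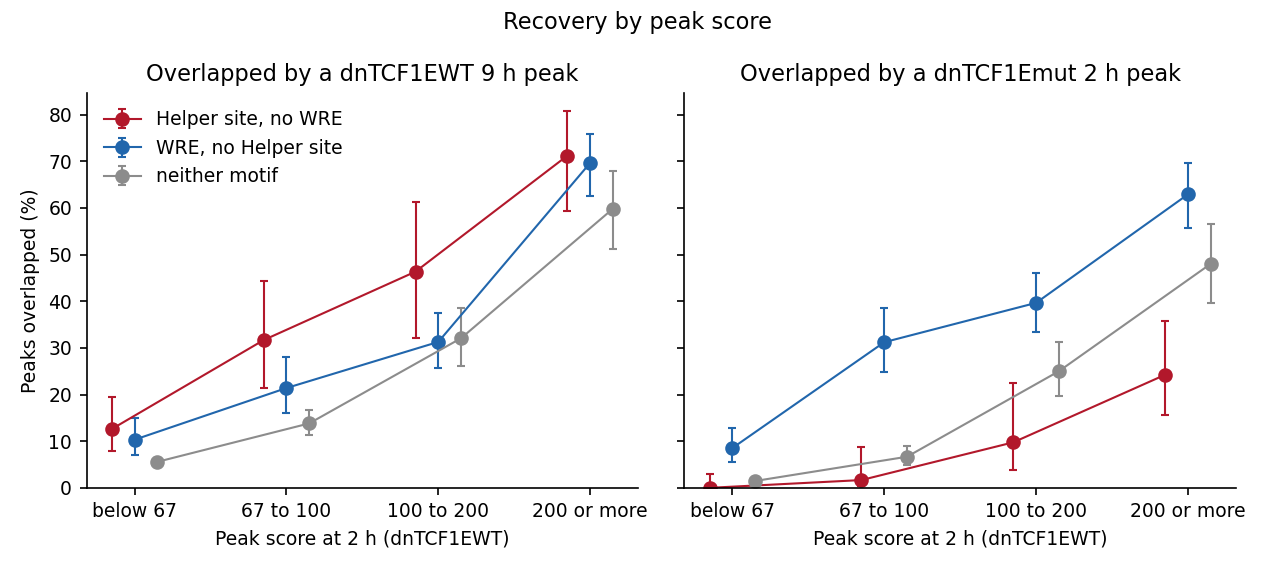
Percentage of dnTCF1EWT 2 h peaks overlapped (y axis) in strata of their peak score (x axis, points offset slightly sideways), for a dnTCF1EWT peak at 9 h (left) and a dnTCF1Emut peak at 2 h (right), as shares with Wilson 95% intervals. In the right panel, 16 of 66 regions with a Helper site and no WRE and a score of 200 or more were overlapped (24.2%), against 62.9% of the peaks with a WRE alone.

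None of the 127 regions with a score below 67 was listed for dnTCF1Emut, which allows a share of up to 2.36%, and 1 of 60 between 67 and 100 was. For peaks with neither motif it was 50 of 3411 (1.47%) and 42 of 630 (6.67%). For peaks with a WRE alone it was 19 of 223 (8.52%) and 54 of 173 (31.2%). The limit of 2.36% thus lies above the share of peaks with neither motif at these scores. The 21 regions that were listed had scores from 69.5 to 1046 for dnTCF1EWT and from 50.5 to 559.8 for dnTCF1Emut. In 18 of them the peak held a single Helper site, and their median GC content was 43.4%. The dnTCF1EWT score was higher in 18 of 21, with a median log2 ratio of dnTCF1Emut to dnTCF1EWT of -1.22 (quartiles -2.15 and -0.50). At the 275 peaks with a WRE alone the median was -0.48, and this difference was not tested. The median dnTCF1EWT score was 316 at the 21 regions and 161 at the 275 peaks, so these did not start alike.

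The highest dnTCF1Emut scores were mostly in intergenic regions. The region nearest to LOC100144602, on chromosome 4 from 67431050 to 67431550, scored 492 for dnTCF1EWT and 559.8 for dnTCF1Emut at 2 h. CTXN3 scored 557 and 463, ATP6AP1L 584 and 347, and RNU6-48 102 and 449. FAM198B scored 486 and 345 in an intron. The dnTCF1Emut score was the higher at LOC100144602, RNU6-48 and NR4A3, a nuclear receptor gene, where it was 131 against 69.5. Of the 21 dnTCF1Emut peaks, 18 held a Helper site themselves, which the overlap likewise largely fixes, and 2 held a WRE, at NR4A3 and CCDC39. The dnTCF1Emut list at 2 h contained 37 peaks with a Helper site and no WRE, and 16 of them (43.2%) overlapped one of the 294 regions.

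At 9 h, 4 regions were listed for dnTCF1Emut, against 1.75% of all dnTCF1EWT 2 h peaks, and they were LOC100144602 (176), FAM198B (135), CTXN3 (95.9) and ATP6AP1L (66.2). In untreated cells, 4 regions overlapped a dnTCF1EWT peak, against 1.4% of all peaks, and 1 region, nearest to FLJ43860, overlapped a dnTCF1Emut peak, against 0.286%. Together these were 5 of 294 (1.70%), 12 of 801 peaks with a WRE alone (odds ratio 1.14, 0.311 to 3.51, Fisher's exact test, adjusted p = 0.874) and 75 of 4380 with neither motif (odds ratio 0.993, 0.311 to 2.45, adjusted p = 1.00, Fisher's exact test). The regions of untreated dnTCF1EWT cells were at LOC100506585, GALNTL5, RHOU and TMTC1. No peak of the other 5 lists overlapped 181 of the 294 regions, against 78.2% of all 2 h peaks. Of the others, 89 were shared with dnTCF1EWT at 9 h and not with dnTCF1Emut at 2 h, against 11.3% of all peaks. A further 9 were shared with dnTCF1Emut and not with 9 h, against 5.82%, and 12 with both, against 3.62%.

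Recovery varied with the number of Helper sites in the peak. At 9 h, 54 of 208 regions with 1 site were listed (26.0%, 95% interval 20.5 to 32.3%), 16 of 39 with 2 sites (41.0%), 10 of 19 with 3 or 4 sites (52.6%) and 21 of 28 with 5 or more (75%, 56.6 to 87.3%). For dnTCF1Emut at 2 h the counts were 18 of 208 (8.65%), 2 of 39, 1 of 19 and 0 of 28, the last of which allows a share of up to 10.7%. The share at 9 h was higher with more sites and the dnTCF1Emut share was not, on few dnTCF1Emut peaks, and neither order was tested. The median GC content rose over these 4 classes from 50% to 62.1, 61.9 and 66.9%, and the median length was 230.5, 253, 335 and 454.5 bp, and their part in the counts was not tested. Of the 28 regions with 5 or more sites, 17 were nearest to genes with near-identical copies, and without these 7 of 11 were listed at 9 h (63.6%, 35.4 to 84.8%). Among regions with a score of 100 or more, 36 of 64 with 1 site and 10 of 18 with 2 sites were listed at 9 h. With 3 or 4 sites it was 5 of 8, and with 5 or more 15 of 17. The share was thus alike with 1 and 2 sites at these scores. Of the 17, 10 were nearest to genes with near-identical copies.

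**Figure D5:**
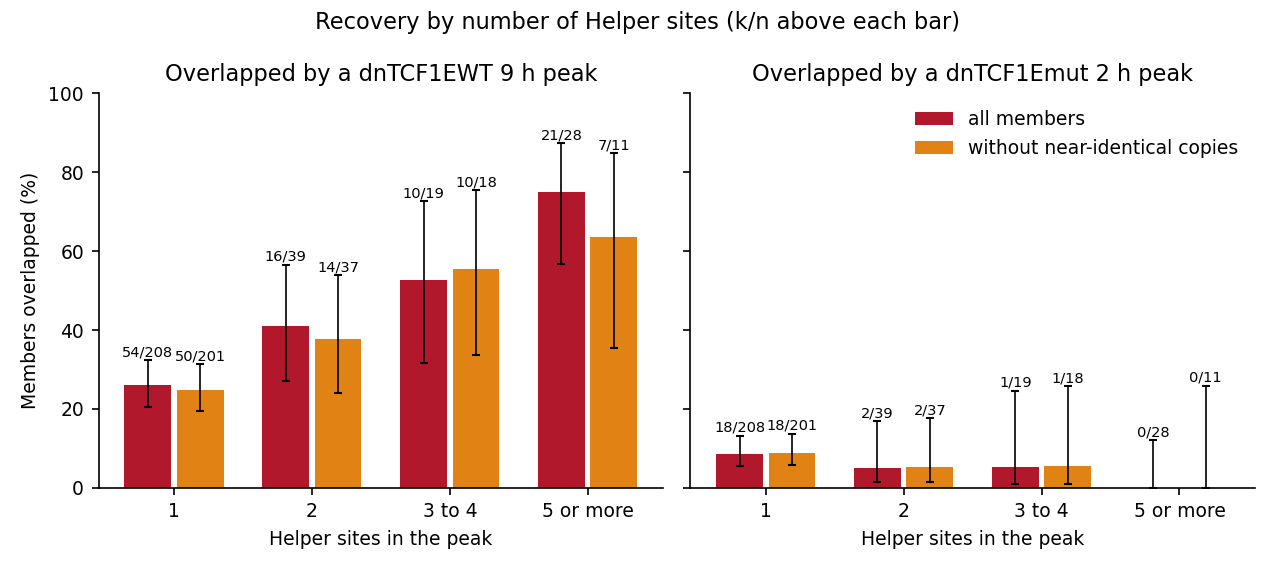
Percentage of the 294 regions overlapped (y axis) by number of Helper sites in the peak (x axis), for a dnTCF1EWT peak at 9 h (left) and a dnTCF1Emut peak at 2 h (right), as bars with Wilson 95% intervals and counts above, for all regions and without those nearest to genes with near-identical copies. The share at 9 h is 26.0% with 1 site and 75% with 5 or more, and the dnTCF1Emut share is 8.65 and 0%.

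The regions with the most Helper sites included RHEB and, with 12 each, FAM35B2 (326 at 2 h and 199 at 9 h) and FAM35B (321 and 204), which are near-identical copies. ARHGAP29 had 2 regions. The one at -9933 bp from the TSS held 11 sites and scored 224 and 103, and the one at the first exon held 6 sites and scored 97.0 and 85.8. JHDM1D, a histone demethylase gene, held 9 sites in intron 1 and scored 387 and 169. None of these was listed for dnTCF1Emut. The short Helper site (5′-RCCG-3′) beyond those within the longer site was present in 221 of the 294 regions (75.2%), 467 of 801 peaks with a WRE alone (58.3%) and 2150 of 4380 peaks with neither (49.1%), which is a description because it shares its letters with the rule.

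The 69 promoter regions and the 225 distal regions were both found in the later list. At 9 h, the counts were 27 of 69 (39.1%, 95% interval 28.5 to 50.9%) at promoters and 74 of 225 (32.9%) elsewhere, and the median scores were 77.8 and 72.1. For dnTCF1Emut at 2 h the counts were 2 of 69 (2.90%, 0.798 to 9.97%) and 19 of 225 (8.44%), and these differences were not tested. The median GC content was 61.4% at the promoters and 50.7% at the distal regions. By distance, dnTCF1Emut peaks overlapped 6 of 109 regions between 2 and 30 kb, 8 of 67 between 30 and 100 kb and 5 of 49 beyond 100 kb.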

How the data were processed

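ChIP-seq with anti-FLAG beads was performed on DLD-1 cells expressing dnTCF1EWT or dnTCF1Emut at 0, 2 and 9 h of induction. Per the submitters' processing notes, CASAVA 1.8.2, Bowtie2 2.0.0, MACS 1.3 and HOMER 3.16 were used with hg19. The duplicates were pooled before peaks were called. The deposited peak score is the MACS score, not scaled for depth. The authors gave GC and CpG content as a fraction of each peak, the distance from its center to the TSS, and the numbers of matches to the WRE, the short Helper site and the Helper site. No read counts were used, so the depth and the precision it gives are unknown. Input libraries were not used here, and 0 columns belonged to other samples.

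Groups were taken from the labels. A region was recovered when any base overlapped a peak of another list. Recovery at 9 h, by dnTCF1Emut at 2 h and in untreated cells, the share within 2 kb of a TSS and the share with a score of 100 or more were compared with peaks holding a WRE alone and with peaks holding neither motif. Fisher's exact test (two-sided) was used, with Benjamini-Hochberg adjustment over 10 tests and a threshold of 0.05, and stratified comparisons were adjusted within each kind of strata. Alternatives were Mantel-Haenszel odds ratios in strata, other limits, and overlap of 50% of both peaks. Strata that did not hold peaks of both compared classes were left out. A count of 0 was taken to allow 3 counts. The scripts, in Python 3.11.15 with SciPy 1.17.1, statsmodels 0.14.6 and pandas 2.3.3, were tested on simulated data.

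Named genes were those nearest to the 15 regions with the highest score, the 10 with the most Helper sites, the 6 with the highest dnTCF1Emut score, the 6 with the highest ratio of 9 h to 2 h score, regions within 30 kb of genes in 9 lists (up to 6 per list), and the 2 with the lowest score. Other genes, among them further promoters and the remaining members of the lists, were named after their values were seen. The members and lists were chosen with earlier results of these data known. The list of genes with near-identical copies and the promoter windows were added after the data had been seen.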

Additional observations from a re-analysis of the deposited data

How the results depend on the processing

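Of 84 alternatives over 11 results, 63 kept the direction and the side of the threshold. The others follow as odds ratios, and the cause of each change was not tested. For recovery at 9 h against peaks with a WRE alone (1.12), the odds ratio was 0.986 in strata of GC content, 0.927 without genes with near-identical copies, 1.53 for scores above 67 (adjusted p = 0.0340, Fisher's exact test) and 2.58 for 2 or more Helper sites. Against peaks with neither motif (4.92), it was 1.45 in strata of score and GC content, which did not pass the threshold. For recovery by dnTCF1Emut against peaks with neither motif (1.56), it was 2.79 in strata of GC content, 2.13 with overlap of 50% of both peaks, 1.73 without near-identical copies, 0.755 for scores above 67, 0.732 for 2 or more Helper sites, 0.305 in strata of score and 0.631 in strata of score and GC content. For untreated cells, it was 0.715 in strata of GC content, 0.869 for scores above 67 and 0.991 with 50% overlap against peaks with a WRE alone, and 1.37 for 2 or more Helper sites and 1.09 without near-identical copies against peaks with neither. For a score of 100 or more against peaks with a WRE alone (0.559), it was 0.775 for scores above 67, 0.978 for 2 or more Helper sites and 1.08 in strata of length. The share with the higher score at 9 h was 61.4% by rank percentile, against 30.7%. The alternatives without near-identical copies and in strata of score and GC content were chosen after seeing the data. No paired analysis was possible because each condition is 1 pooled list. Leaving out a replicate was likewise not possible. A peak score depends on sequencing depth, which is unknown, and an absent peak may fall just under the caller's limit.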

Other observations

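Repeats held a smaller share of the regions with a Helper site and no WRE than of all peaks, as a description with no test. HOMER placed 117 of the 294 regions (39.8%) in an annotated repeat, against 40.7% of the peaks with a WRE alone and 82.7% of the peaks with neither motif, and 73.3% of all peaks. Alu elements, short interspersed repeats that are rich in GC, held 61 regions (20.7%), against 48.5% of all peaks and 59.7% of those with neither motif. A single Helper site was present in 59 of the 61. Their median score was 54.8, their highest 116.85, and 2 reached 100. A dnTCF1EWT peak at 9 h overlapped 5 of the 61 (8.20%), and no dnTCF1Emut peak at 2 h overlapped any, which allows a share of up to 4.92%. Long terminal repeats, the ends of endogenous retroviruses, held 43 regions (14.6%), against 11.8% of all peaks and 15.9% of those with a WRE alone, with 13 listed at 9 h and 3 for dnTCF1Emut. Among these was the region nearest to UGT2B15, in a repeat of the ERV1 family. The 177 regions outside repeats had a median score of 102, and 77 of them (43.5%) were listed at 9 h and 17 for dnTCF1Emut.

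Genes on the list of near-identical copies were nearest to 27 of the 294 regions. The list was drawn up after the genes of these regions had been seen and is not complete, since GTF2I and TBC1D3P2, for example, are not on it, so this count is not compared with other peaks. Its genes include INTS4L1, INTS4L2, FOXD4L4, FAM35B and SDHAP1. At 9 h, 20 of these regions were listed, with a median log2 ratio of the 9 h to the 2 h score of 0.23, and 0 were listed for dnTCF1Emut at 2 h. CpG islands, by HOMER's detailed annotation, held 33 regions (11.2%), against 1.22% of all peaks and 11.8% of the peaks with both motifs. Of the 33, 20 were listed at 9 h (60.6%, 95% interval 43.7 to 75.3%) and 0 for dnTCF1Emut at 2 h, and 12 were nearest to genes with near-identical copies.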
